A study of Danio rerio with 15 samples.

Results

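Gene expression in heads of zebrafish (Danio rerio) embryos that received guide RNA plus Cas9 was compared with that in both control groups together. The guide RNA targets ncapg2 and directs the Cas9 nuclease to that gene. The comparison used 15 of 15 libraries of the series, 5 with guide RNA plus Cas9 (S11 to S15) against 10 controls, and a gene was listed when its 5 Cas9 values lay outside the range of all 10 controls. The controls were 5 libraries injected with phenol red, a tracer dye (S1 to S5), and 5 injected with the guide RNA without nuclease (S6 to S10). All embryos came from wild-type adults, were reared at 28 °C to 2 days post-fertilization and were pooled by 20, so that each library is 1 pool of heads. The series design speaks of biological replicates. Cas9 was never injected without the guide, so the nuclease itself and editing of ncapg2 cannot be told apart, and the share of edited alleles in each pool was not analysed here. The number of the guide differs between sample titles and treatment labels.

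NCAPG2 is a non-SMC subunit of condensin II, a ring-shaped complex that compacts and stiffens chromosomes before cell division. Condensin I and II share the ATPases SMC2 and SMC4 and differ in their other subunits. Dividing progenitors of the embryonic brain and eye depend on accurate chromosome segregation, and many genes behind human primary microcephaly act in mitosis. The stated purpose of the series was to see how loss of NCAPG2 affects transcription in the developing head.

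Reads assigned to genes totalled 34.97 to 46.46 M (M, mega) per phenol red library, 39.79 to 49.3 M per guide RNA library and 41.58 to 48.51 M per Cas9 library. The values below are normalized counts, that is gene counts divided by 1 size factor per library. The labelled tissue was checked by markers: 27 of 27 genes of head and brain regions were tested, with summed normalized counts of 26389 to 35623 per library, while the 8 posterior hox genes tested, which mark the trunk, summed to 64.3 to 210.3. The 14 heart genes summed to 26196 to 41528 and the 30 skeletal muscle genes to 343271 to 482620. Sums over different genes do not compare amounts of tissue, so these values do not show that the pools held head tissue alone. Liver and yolk genes, which a head sample can carry along, varied most: their summed normalized count ranged from 24897 (S14) to 129728. Libraries at the same column position in their groups (1 to 5) deviated together, and position 1 (S1, S6 and S11) had the highest correlations, 0.772 to 0.782. The columns carry no batch label, and 5 libraries shared a lane. Which libraries shared one was not analysed here, so the part of lane was not tested.

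The targeted gene, ncapg2 (ENSDARG00000060023), fell in the Cas9 libraries and was the 1 gene called. Its normalized counts were 834, 868, 945, 754 and 879.7 with phenol red (S1 to S5). They were 988, 979, 901, 809 and 885 with guide RNA (S6 to S10) and 423, 407, 373, 505 and 432 with guide RNA plus Cas9 (S11 to S15). All Cas9 libraries were below all 10 controls, with S14 the highest of them and S13 the lowest, and the 2 control groups overlapped. The mean was 428 ± 48.4 (SD, n = 5) against 884 ± 73.9 (SD, n = 10), or 48.4% of the controls. The log2 fold change was -1.05 ± 0.072 (SE), with a 95% interval of -1.20 to -0.90 and a limma adjusted p of 7.37e-07. With column position as a block it was -1.05 ± 0.073 (SE; limma adjusted p = 2.44e-06). A two-sided exact permutation test over the 3003 assignments of 5 among 15 libraries gave p = 0.000333, the smallest it can give. It exchanged libraries freely and did not keep the pairing by column position, within which fewer assignments exist and the smallest p is larger. Differences from the mean of both controls at the same position were -1.10, -1.18, -1.30, -0.63 and -1.03 on the log2 scale at positions 1 to 5, so that position 4 showed the least and position 3 the most. In bulk samples, fewer cells of a type and less RNA per cell cannot be told apart.

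**Figure D1:**
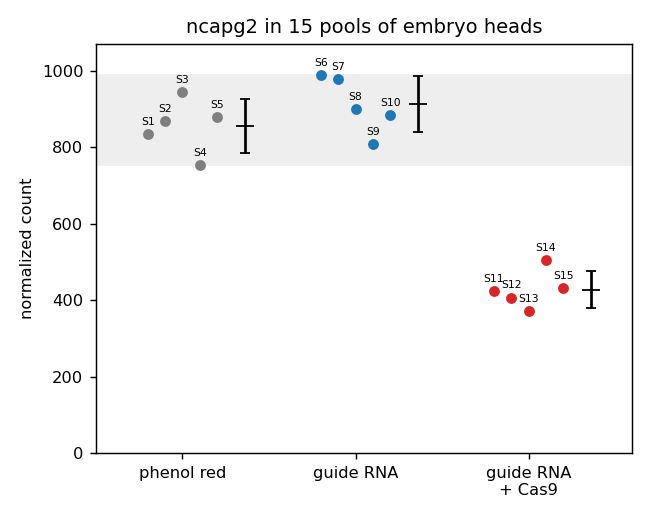
Normalized counts of ncapg2 in 15 libraries by group (points, with column positions 1 to 5 from left to right), with mean and SD per group (bars) and the range of the 10 controls shaded. The 5 Cas9 libraries lie between 373 and 505, below the lowest control at 754.

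Of 21902 genes tested, ncapg2 was called by limma (1 gene, 0.00457%), and edgeR also called 1 gene. Before adjustment, 388 genes (1.77%) had p under 0.05 in limma, of which 155 were higher (0.708%) and 233 lower (1.06%). Column position as a block left the call count at 1 in limma, while the count at an unadjusted p under 0.05 went to 1813 (8.28%), 1043 higher and 770 lower. That count depends on single libraries: it was 963 without S11, 1016 without S15 and 2892 without S14. Without the block it was 216 without S13 and 619 without S8. The smallest limma adjusted p after ncapg2 was 0.288 without the block and 0.209 with it. The median log2 fold change of all genes was 0.0037, and 51.9% were positive. The median residual SD was 0.156 on the log2 scale without the block and 0.109 with it. The share of genes whose 95% interval excluded any change beyond 1.5-fold was 87.6% without the block and 91.7% with it, and beyond 2-fold it was 95.8% and 97.9%.

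**Figure D2:**
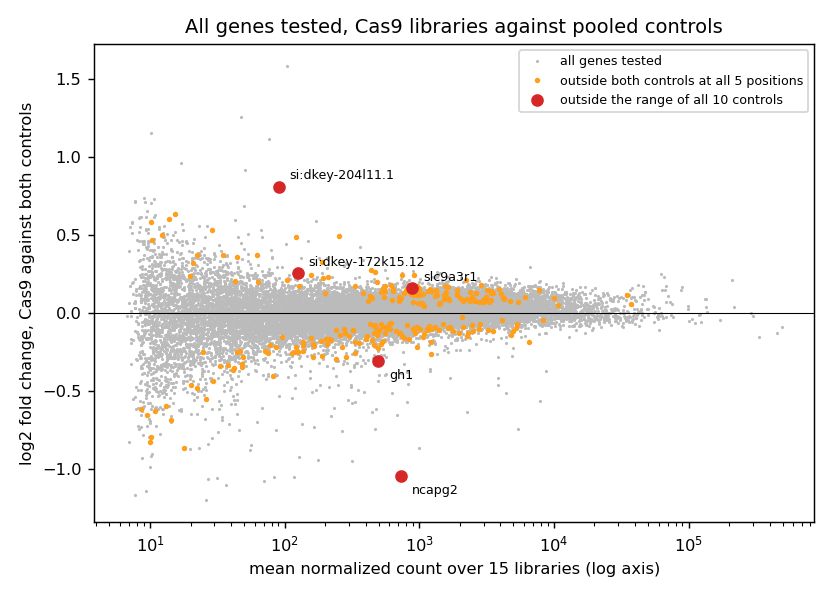
Log2 fold change of Cas9 libraries against both controls (vertical axis) by mean normalized count over 15 libraries (horizontal log axis), with 1 point per gene tested. The 5 genes outside the range of all 10 controls are in red and the genes outside both controls at all 5 positions in orange, with ncapg2 marked at -1.05.

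All 5 Cas9 libraries lay outside the range of all 10 controls for 5 genes (0.0228% of those tested). Higher were si:dkey-204l11.1, si:dkey-172k15.12 and slc9a3r1 (3 genes, 0.0137%), and lower were ncapg2 and gh1 (2 genes, 0.00913%). If libraries were freely exchangeable, 1 of the 3003 assignments would put all 5 above the controls and 1 would put them below. Each of these shares is larger than the one found in its direction, so the count of listed genes is not shown to exceed that of chance. Libraries at the same column position deviated together, so free exchange does not hold and these shares can overstate what chance gives. The comparison therefore cannot decide whether the count exceeds chance. With 4 of the 5 Cas9 libraries outside, there were 25 genes higher and 23 lower. Leaving out 1 library gave 6 (without S1) to 20 genes (without S11). Such a rise is built into the rule, since fewer libraries then define the range or have to pass it. It therefore does not show how far the list depends on any library. Apart from ncapg2, the targeted gene, the listed genes were picked by these same values. A small unadjusted p or an interval clear of 0 given for them below is thus no added support. The authors' deposited values come from the same libraries and are no separate check. The names si:dkey-204l11.1 and si:dkey-172k15.12 are clone-style and are given because the count is small, which was decided after their values were seen.

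The gene si:dkey-204l11.1 had the largest positive difference of the 5. RefSeq lists tnfrsf27 as a synonym, and in human the gene of that name (EDA2R) encodes a receptor for an ectodysplasin. The deposited tables list it as not coding and the RefSeq table as protein coding. Its normalized counts were 77.4, 71.6, 68.8, 77.4 and 45.3 with phenol red and 60.7, 71.4, 74.4, 91.2 and 84.4 with guide RNA. They were 130.4, 149, 133, 92.7 and 129 with guide RNA plus Cas9. S14 stood just above the highest control, S9, and the other Cas9 libraries were well above both groups. The log2 fold change was 0.81 ± 0.14 (SE; 95% interval 0.51 to 1.11), with limma adjusted p = 0.288 without and 0.209 with the block, so limma did not call the gene with all 15 libraries. With the block limma called it when S14, its lowest Cas9 library, was left out (limma adjusted p = 0.00998). The same held when position 4 was left out (limma adjusted p = 0.0209). DESeq2 on the recovered reads called it higher, with adjusted p = 0.000434 without and 0.00135 with the block, and edgeR gave adjusted p = 0.16 and 0.109. It was 0.72 against guide RNA and 0.90 against phenol red. In the authors' deposited tables it was at 0.73 ± 0.17 (SE; adjusted p = 0.272) against guide RNA and 0.91 ± 0.18 (SE; adjusted p = 0.00378) against phenol red.

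The gene gh1 encodes growth hormone, which somatotroph cells of the pituitary secrete. Its normalized counts were 631, 574, 469, 603 and 528 with phenol red and 474, 549, 508, 463 and 511 with guide RNA. They were 376, 442, 423, 448 and 444 with guide RNA plus Cas9. The highest Cas9 value, in S14, lay just below the lowest control, S9, and S11 was lowest of all. The log2 fold change was -0.31 ± 0.076 (SE; 95% interval -0.47 to -0.15), with an unadjusted limma p of 0.000721 and no call (limma adjusted p = 1; 0.48 with the block). It was -0.23 against guide RNA and -0.39 against phenol red, and the control groups differed by -0.16 (guide RNA minus phenol red). The authors' deposited tables give it -0.23 ± 0.088 (SE; adjusted p = 1) against guide RNA and -0.39 ± 0.088 (SE; adjusted p = 0.0527) against phenol red.

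A small list of pituitary genes was added after this value was seen, and it received no test. Of 11 symbols, 10 were in the tables and tested, with 4 positive and 6 negative and a median log2 fold change of -0.059. The factor gene pou1f1, needed for growth hormone, prolactin and thyrotropin cells, was at -0.28 ± 0.22 (SE), and its normalized counts were low, from 20.1 to 40.6 with Cas9 and 22.4 to 54.4 in the controls. Other hormone genes were at -0.12 ± 0.15 (SE) for cga, the shared glycoprotein hormone subunit, -0.12 ± 0.14 for tshba, the thyrotropin subunit, -0.073 ± 0.096 for pomca, the corticotropin precursor, and -0.045 ± 0.14 for prl, prolactin. None was called, and apart from gh1 the Cas9 libraries overlapped the controls. The remaining members were at 0.043 ± 0.23 for prl2, 0.27 ± 0.35 for smtla, 0.019 ± 0.068 for six6b and 0.047 ± 0.082 for LHX3. The value of smtla was 0.12 without S15 and 0.67 without S13.

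The other genes outside the range had small differences. The gene slc9a3r1 encodes a scaffold protein that anchors transporters at the apical membrane. Its normalized counts ran from 933 to 983 in the Cas9 libraries and from 751 (S1) to 929 (S8) in the controls. Its log2 fold change was 0.16 ± 0.048 (SE; limma adjusted p = 1, 0.59 with the block). The gene si:dkey-172k15.12 ran from 129.6 to 151 with Cas9 and from 94.5 to 128 in the controls. Its log2 fold change was 0.26 ± 0.083 (SE; limma adjusted p = 1, 0.59 with the block).

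**Figure D3:**
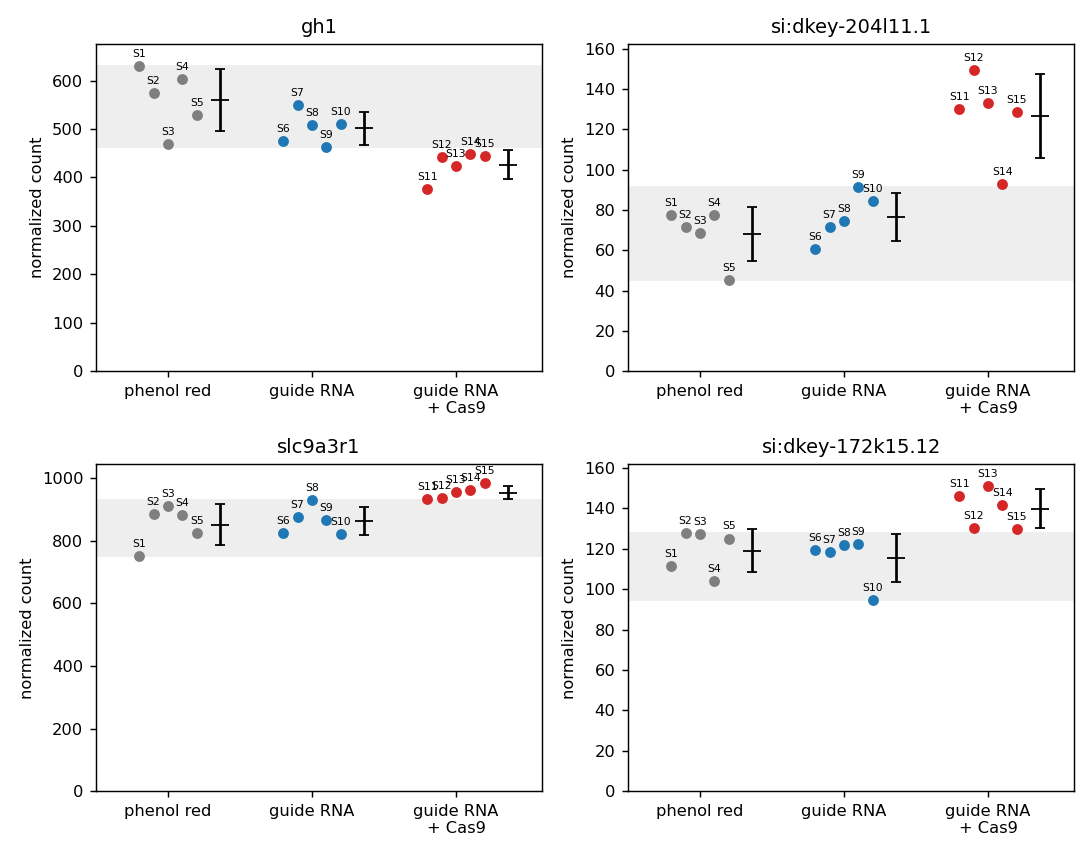
Normalized counts in 15 libraries for gh1, si:dkey-204l11.1, slc9a3r1 and si:dkey-172k15.12, with group mean and SD (bars) and the range of the 10 controls shaded. All 5 Cas9 libraries lie outside the shaded range in each panel, with S14 close to its edge for gh1 and si:dkey-204l11.1.

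Comparison within column position gave a longer list. The Cas9 library was outside both controls of its own position at all 5 positions for 259 genes (1.18% of those tested), 126 higher (0.575%) and 133 lower (0.607%). Genes can pass this rule by chance, and their expected count was not computed here. The count of 259 is therefore not shown to exceed that of chance, and passing the rule does not single out any 1 gene. Of the 259, 225 had a mean of 50 or more, and 206 also had an unadjusted p under 0.05 in the limma fit with the block. That fit uses the same values by which the genes were picked, so the small p is no added support. DESeq2 with the block called 6 genes (0.0274%), 5 of them higher (0.0228%), against 2 genes (0.00913%) without the block. Besides ncapg2 and si:dkey-204l11.1 these included gas2l3, ENSDARG00000078683 and si:cabz01113374.2. In the pooled comparison with the block neither limma nor edgeR called these 3, with limma adjusted p = 0.209 and edgeR adjusted p = 0.155 for each. ENSDARG00000078683 was called by limma with the block when the 3 group means entered 1 fit (adjusted p = 0.0129) and against phenol red alone (adjusted p = 0.0276).

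In the DNA damage response and repair list, cdkn1a and mdm2 were above both controls at all 5 positions and ccng1 at 3. These were the 2 of 35 members above at all 5 positions, where all genes gave 0.575%. The cell cycle inhibitor gene cdkn1a (p21) had normalized counts of 188, 168, 162, 129 and 165 with phenol red and 219, 179, 155, 151 and 214 with guide RNA. They were 251, 221, 194, 167 and 255 with guide RNA plus Cas9. The groups overlapped across positions and not within them. Its log2 fold change was 0.33 ± 0.072 (SE with the block; limma adjusted p = 0.44), with a 95% interval of 0.17 to 0.48. The ubiquitin ligase gene mdm2 ranged from 1193 to 1407 with Cas9 and from 1077 to 1240.4 in the controls, with a log2 fold change of 0.15 ± 0.041 (SE with the block). The cyclin gene ccng1 was at 0.13 ± 0.050 (SE with the block). None of these was called by limma, edgeR or DESeq2. The whole list had 23 of 35 members positive and a median of 0.028, and rad51d, a homologous recombination gene, was at 0.19 ± 0.072 (SE with the block). At an unadjusted p under 0.05 with the block, 4 members were higher and 1 lower, where all genes gave 4.76% and 3.52%. The median was 0.0064 without S11 and 0.056 without S14. The average over the list of log2 values centred on each gene's mean was higher with Cas9 than with phenol red at all 5 positions. Compared with guide RNA it was higher at positions 1 to 3 and lower at positions 4 and 5.

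The 3 genes named above that DESeq2 called with the block also overlapped the controls across positions. The gene gas2l3 encodes a linker of actin and microtubules that acts in cytokinesis. Its normalized counts ranged from 819 (S11) to 1181 (S15) with Cas9 and from 649.7 (S1) to 1050 (S5) in the controls, and the log2 fold change was 0.24 ± 0.046 (SE with the block; DESeq2 adjusted p = 0.019). ENSDARG00000078683, which has no name in the deposited tables and is paired with RNF14 in the gene name table, was at 0.49 ± 0.089 (SE with the block; DESeq2 adjusted p = 0.00793). It ranged from 246 to 383 with Cas9 and from 161 to 320 in the controls. The gene si:cabz01113374.2 was at 0.24 ± 0.046 (SE with the block; DESeq2 adjusted p = 0.019). Without the block, DESeq2 gave these 3 genes adjusted p = 1.

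**Figure D4:**
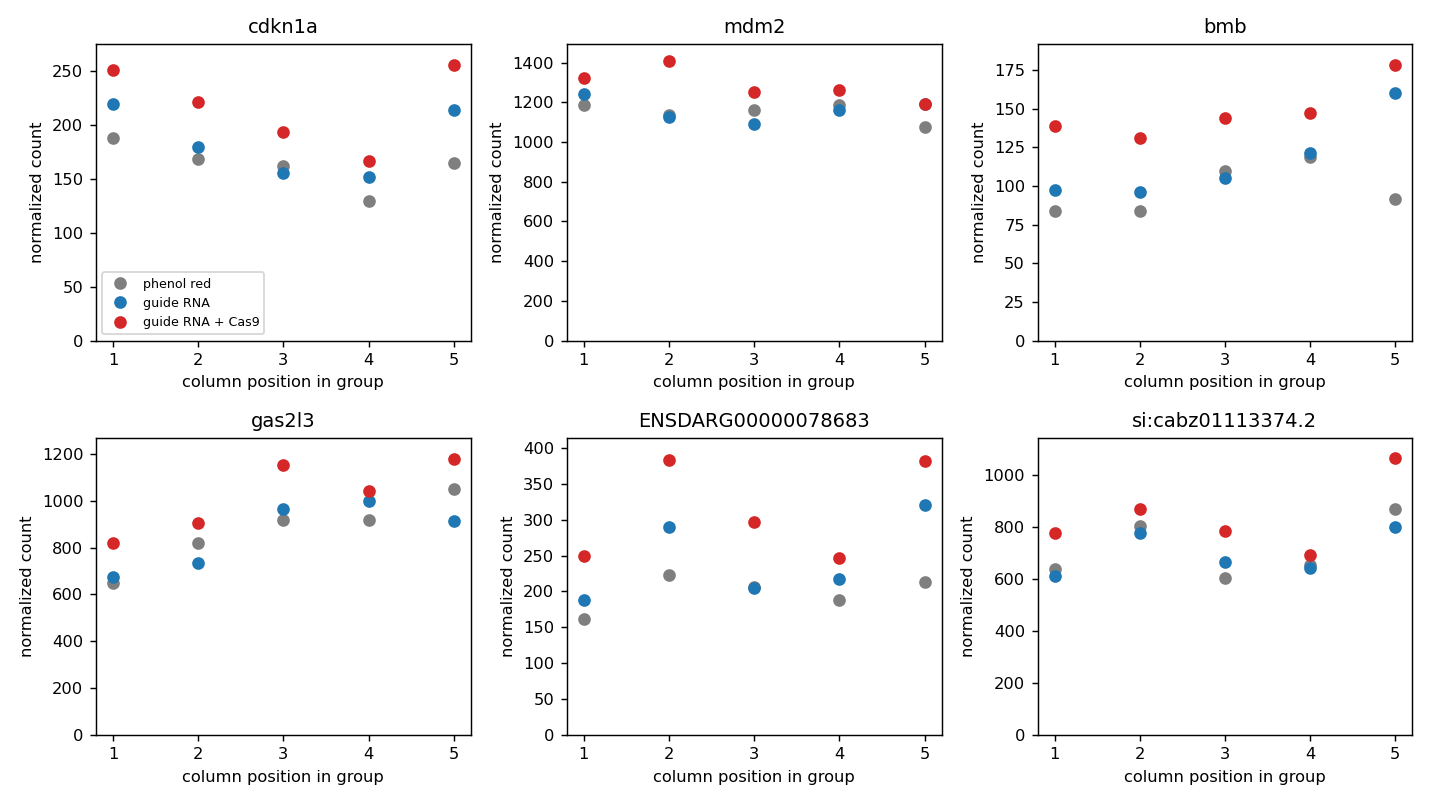
Normalized counts by column position (1 to 5) for cdkn1a, mdm2, bmb, gas2l3, ENSDARG00000078683 and si:cabz01113374.2, with 1 point per library coloured by group. At each position the Cas9 library is above both controls, for mdm2 at position 5 by 1193 against 1190.3, while values of different positions overlap.

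Among genes with a mean of 50 or more and a regular name, the 10 with the most positive and the 10 with the most negative fold change of the all-position list were taken, a choice made after the values were seen. The positive ones, besides cdkn1a and gas2l3, included bmb (brambleberry, needed for nuclear fusion in early zebrafish embryos) at 0.49 ± 0.10 (SE with the block) and tmem138, a gene of cilia, at 0.27 ± 0.060. They also included rxrgb, a retinoid receptor gene, at 0.26 ± 0.063, and orc2, an origin recognition subunit gene, at 0.23 ± 0.060. Among them were also lgi3 at 0.24 ± 0.076, FSBP at 0.21 ± 0.093 and wnt2ba, a Wnt ligand gene, at 0.20 ± 0.099. The negative ones, besides ncapg2 and gh1, included slc8b1, a mitochondrial sodium and calcium exchanger gene, at -0.28 ± 0.074, and fxn, which encodes frataxin of iron-sulfur cluster assembly, at -0.22 ± 0.067. The others were ccdc160 at -0.27 ± 0.062, aamdc at -0.26 ± 0.11, prss60.2 at -0.26 ± 0.070, lace1b at -0.24 ± 0.074, phkg1b at -0.21 ± 0.077 and fibpb at -0.21 ± 0.075. Apart from ncapg2, and from gas2l3 in DESeq2 with the block, none of these was called.

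Among 8 condensin genes tested, ncapg2 fell and the others were not called. The ATPase gene smc4 was at 0.15 ± 0.10 (SE), ncapd2 of condensin I at 0.10 ± 0.069 and its kleisin gene ncaph at 0.054 ± 0.055. The list had 6 members positive and a median of 0.027, while its mean, which ncapg2 enters, was -0.089. The median was -0.0040 without S12 and -0.00058 without position 1. The low value of S1 touched smc4 and ncapd2, whose counts there were 2189 and 2005 against 3243 and 2765 in the lowest guide RNA library. Of 21 cohesin and SMC5/6 genes, 19 were positive with a median of 0.059, where 51.9% of all genes were positive, and the median was 0.0225 without position 1. Here pds5b, a cohesin regulator gene, was at 0.15 ± 0.057 (SE with the block), sgol1, which protects centromeric cohesion, at 0.13 ± 0.054, and the loader genes mau2 and nipbla at 0.12 ± 0.044 and 0.12 ± 0.050.

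Against both control groups pooled, cell division genes were mostly on the positive side and none was called. Of 44 mitosis and cytokinesis genes, 34 were positive (median 0.060), with 2 higher and 1 lower at an unadjusted p under 0.05 with the block, near or under the 4.76% and 3.52% of all genes. The cytokinesis exchange factor gene ect2 was at 0.16 ± 0.057 (SE with the block), the checkpoint kinase gene bub1 at 0.14 ± 0.052, the kinesin gene kif20a at 0.11 ± 0.054 and the securin gene pttg1 at -0.15 ± 0.071. Of 21 primary microcephaly genes, 20 were positive (median 0.063), with phc1, a Polycomb gene, at 0.15 ± 0.049, and the spindle pole genes wdr62 and aspm at 0.12 ± 0.055 and 0.099 ± 0.054, and cep152, a centriole gene, at 0.093 ± 0.051. The list score (the average, over its genes, of log2 values centred on each gene's mean) differed by 0.19, 0.037, 0.056, 0.038 and 0.013 at positions 1 to 5, so position 1, with S1, gave the largest value. The mitosis and cytokinesis score differed by 0.14, 0.066, 0.059, 0.00016 and -0.026 at these positions. The DNA replication score differed by 0.048, 0.040, 0.016, 0.046 and -0.035, so both were negative at position 5. DNA replication genes were at a median of 0.016 with 26 of 44 positive, and mcm7, a helicase subunit gene, was at 0.16 ± 0.060 (SE with the block), and the chromatin assembly genes chaf1a and chaf1b at 0.10 ± 0.061 and 0.098 ± 0.062. The median was 0.032 without position 1 for mitosis and cytokinesis and 0.041 for primary microcephaly, and that of DNA replication was -0.0072 without S4. The DNA replication score ran from -0.13 to 0.026 with phenol red, -0.054 to 0.15 with guide RNA and -0.048 to 0.079 with Cas9. For mitosis and cytokinesis these ranges were -0.106 to 0.0077, -0.069 to 0.046 and -0.010 to 0.105. For primary microcephaly they were -0.23 to 0.017, -0.049 to 0.069 and 0.0051 to 0.077. In each list the lowest score was in a phenol red library, and the Cas9 range overlapped those of both control groups. With Cas9 the DNA replication and primary microcephaly scores exceeded those of phenol red at all 5 positions. The mitosis and cytokinesis score did so at positions 1 to 4. Compared with guide RNA, the DNA replication score was lower at positions 1, 3 and 5 and higher at positions 2 and 4. The scores of both other lists were higher than with guide RNA at positions 1 to 3 and lower at positions 4 and 5. Against guide RNA the positive lean was thus not shared by all positions.

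Apoptosis genes leaned the other way without a call. Of 25, 7 were positive and the median was -0.043, and at an unadjusted p under 0.05 with the block none was higher and 3 were lower, where all genes gave 4.76% and 3.52%. The median was -0.020 without S6. The executioner caspase gene casp3b was at -0.19 ± 0.059 (SE with the block) and at -0.038 without S13, the BH3-only genes bik and bida at -0.18 ± 0.073 and -0.14 ± 0.068, and the survival gene mcl1b at -0.13 ± 0.058. The list score was lower than the controls' mean at all 5 positions.

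Genes of neurogenesis and of the eye gave small positive values. Of 21 proneural genes and Notch ligands, 18 were positive (median 0.059), with insm1b, a factor of neuronal differentiation, at 0.15 ± 0.046 (SE with the block), the onecut factors onecut1 and onecutl at 0.17 ± 0.066 and 0.14 ± 0.054, and bhlhe22 at 0.10 ± 0.040. Retina and photoreceptor genes had 29 of 39 positive (median 0.058), with nrl, a rod factor gene, at 0.25 ± 0.086, pou4f3, a sensory neuron factor gene, at 0.23 ± 0.086, otx5 at 0.21 ± 0.073 and guca1c, a photoreceptor calcium sensor gene, at -0.20 ± 0.057. Lens genes had 21 of 29 positive (median 0.060), and the crystallin genes crybb1, crybb1l1 and cryaa were at 0.23 ± 0.073, 0.17 ± 0.066 and 0.14 ± 0.050, and foxe3, a lens factor gene, at 0.22 ± 0.10. The retina score differed by 0.15, -0.049, 0.075, 0.17 and -0.025 at positions 1 to 5, so its sign was not shared by the positions. Without S14 the medians were 0.018 for retina and photoreceptors, 0.017 for lens and 0.025 for proneural genes and Notch ligands. Cranial neural crest and cartilage genes had a median of 0.032 with 18 of 28 positive, and col2a1a, the type II collagen gene, was at 0.21 ± 0.064, col11a1a at 0.17 ± 0.065, sox9a at 0.14 ± 0.051 and sox10 at 0.11 ± 0.044. Its median was 0.014 without position 3. The lowest member of this list, not named here, was at -0.46, and the list score differed by 0.015. At an unadjusted p under 0.05 with the block in limma, 6 members were higher and 2 lower, where all genes gave 4.76% and 3.52%.

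Lists of tissue at the surface of the head or outside it also had values away from 0, and their part in the gene values above was not tested. Of 35 epidermis genes 7 were positive (median -0.049), with the keratin gene krt17 at -0.15 ± 0.049 (SE with the block), agr2 and agr1 at -0.16 ± 0.050 and -0.14 ± 0.044 and the adhesion gene epcam at -0.13 ± 0.042. Their summed normalized count ranged from 679184 to 749424 with Cas9, 640041 to 760174 with guide RNA and 697357 to 772368 with phenol red. Ionocyte and Rh ammonium transporter genes had 8 of 22 positive (median -0.047; -0.0085 without S14). Among them the ammonium transporter gene rhcgl1 was at -0.61 ± 0.22, with S1, S6 and S11 at 678, 867 and 412 against at most 206 in the other libraries. The others were rhbg at -0.11 ± 0.053, atp1b1b, a sodium pump subunit gene, at -0.082 ± 0.039 and clcn2c, a chloride channel gene, at 0.30 ± 0.085.

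Hatching gland genes, from a transient gland on the front of the embryo, varied among libraries of the same group, and no summary is given over the 5 tested. The hatching enzyme gene he1a had normalized counts of 3.18, 336, 42.0, 13.3 and 14.5 with phenol red, 8.41, 287, 20.8, 48.1 and 53.2 with guide RNA and 18.4, 85.7, 227, 87.8 and 325 with Cas9, so S2 and S7 were far above the other controls and the groups overlapped. Its log2 fold change was 1.58 ± 0.72 (SE with the block), and prdm1a was at 0.17 ± 0.069 and klf17 at -0.11 ± 0.056. The protease gene ctslb exceeded 10 normalized counts in S2 (28.6) and S7 (28.8) and in the Cas9 libraries S12 (15.7), S13 (17.1) and S15 (31.7). It passed the filter on low values with exactly these 5 libraries, so neither its controls nor its Cas9 libraries alone would have sufficed. Heart genes had 4 of 14 positive (median -0.14; -0.027 without S15 and -0.26 without S11), with myl7, a myosin light chain gene, at -0.25 ± 0.13, tnnt2a, a troponin gene, at -0.19 ± 0.092, nkx2.5 at -0.28 ± 0.16 and tnni1b at -0.13 ± 0.079. The heart score with Cas9 was below that with phenol red at all 5 positions. Compared with guide RNA it was higher at positions 1, 2, 3 and 5 and lower at position 4. The pooled fall was therefore not shared by both control groups. Liver and yolk genes had 3 of 26 positive (median -0.32), and the median was 0.498 without S14. There apoc2, an apolipoprotein gene, had a normalized count of 1.99 and apoba one of 9.97 in S14, and without S14 their log2 fold changes went from -0.95 to 0.34 and from -0.87 to 0.41. The lipid carrier gene apoeb and the retinol carrier gene rbp4 were at -0.10 ± 0.054 and -0.087 ± 0.062 (SE with the block).

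**Figure D5:**
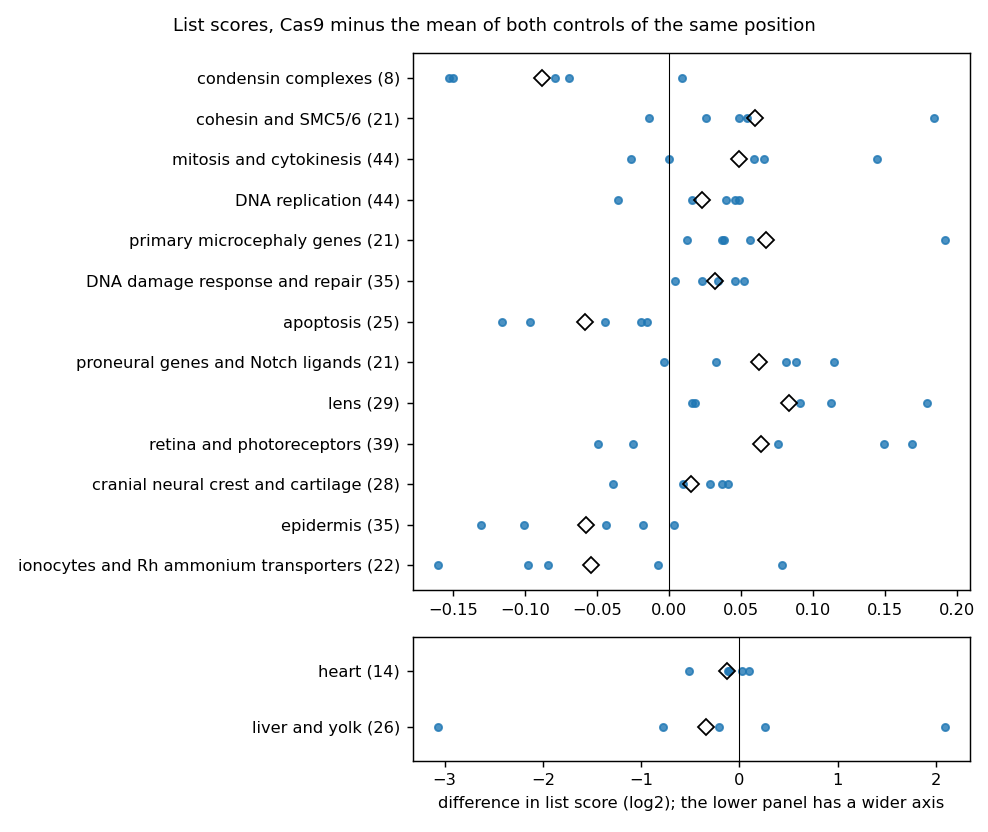
Difference in list score between the Cas9 library and the mean of both controls of the same position (points, 1 per position) and the mean over 5 positions (diamonds), on a log2 scale, with the number of genes tested in brackets. In the lower panel, which has a wider axis, liver and yolk run from -3.07 to 2.09 and heart from -0.51 to 0.097, while points of the upper panel stay within 0.2 of 0. The hatching gland list, whose genes also varied widely among libraries of the same group, is not drawn.

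The 16 lists described above were chosen after their values were seen. The other 14 lists had medians between -0.055 and 0.055 and no member called, beside a median of 0.0037 over all genes. Their medians were 0.055 for pigment cells, 0.049 for heat shock, 0.044 for head and brain regions, 0.041 for differentiated neurons, 0.039 for posterior hox genes and 0.030 for neural progenitors. They were 0.0091 for endothelium, -0.0022 for skeletal muscle, -0.0026 for the unfolded protein and integrated stress response, -0.0067 for the circadian clock, -0.014 for interferon and RNA sensing and -0.022 for immediate early genes. Macrophages and neutrophils were at -0.042 (8 of 27 positive). Erythroid cells were at -0.055 (3 of 21 positive), which went to 0.0083 without S14. Without S11 the medians of heat shock and posterior hox genes were -0.042 and -0.24, and without S14 that of pigment cells was 0.0030.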

How the data were processed

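Per the labels' protocols, poly(A) RNA of 15 head pools went into strand-specific libraries that were read from 1 end for 50 bp. The submitters' processing notes name STAR, HTSeq and DESeq2, and bcl2fastq, cutadapt and Trim Galore. Tool versions, genome build, annotation and strand setting were not given in the sources used here. The authors deposited 3 tables of pairs of groups, which were joined on gene identifier (23009 genes, 493 without a name). The deposited signal is the gene count over a size factor of its library. Dividing by each library's step gave whole reads for 100% of values (tolerance 0.001 of a read). The tables also hold the authors' deposited log2 fold changes and standard errors, a test statistic (score) and p-values. Which tables hold a column gives its group, and libraries are named by column heading.

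The limma trend method (limma 3.58.1 in R 4.3.3, robust moderation) was fitted to log2(value + 1) of 21902 genes with 10 or more in at least 5 libraries, Cas9 against the 10 controls. Adjusted p is Benjamini-Hochberg over all genes tested (threshold 0.05), and fold changes on this scale understate the change of low genes. A second fit added column position as a block. Same-position libraries correlated in their deviations from group means in 15 of 15 pairs (r = 0.127 to 0.782, against -0.537 to 0.36 for other pairs), and 15 of 15 libraries were closest to their own position, so position was treated as pairing. edgeR 4.0.16 (quasi-likelihood) and DESeq2 1.42.0 on the recovered reads were alternatives. Simulated data for this comparison held 200 changed genes among 21792, changed 1.25, 1.5, 2 or 4-fold. The changed genes all had a mean of 50 or more, so recovery of lower genes was not examined. Without the block limma recovered 40%, 88%, 98% and 96% of them in that order (0 false calls). With the block the shares were 76%, 100%, 100% and 96% (13 false calls). The Benjamini-Hochberg cut is looser when 200 genes change than when few do. These shares can therefore overstate recovery in the data here, where limma called 1 gene.

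Named genes are ncapg2, the called genes, those outside the range of all 10 controls (mean of 50 or more, regular names first) and up to 4 members with the smallest p in the fit with the block from each list described. Genes called by DESeq2, those of the all-position list and the pituitary genes were added after the values were seen. The lists held 826 symbols in 30 lists, 772 of them matched (28 through gene name or RefSeq GRCz12tu synonym tables, from which no coordinates were taken). The members and lists were chosen with earlier results of these data known. Some genes are not reported here. Where genes overlap or share reads with a near-identical copy, their counts are uncertain.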

Additional observations from a re-analysis of the deposited data

Results flagged for a closer look

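A library was listed when its gap to the nearest other library of its group of 5 exceeded 0.71 of the group's range (Dixon's 95% value). Of 333 groups examined, 25 were listed (7.51%), where chance gives about 1 in 20 for independent and normally distributed values. The genes here were chosen, vary together and enter some of the list scores, so the shares cannot be compared directly. S1 was listed 7 times and S6 5 times, and both hold column position 1. No cause was tested.

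At position 1, rhcgl1 was highest of its group in S1 (678 normalized counts), S6 (867) and S11 (412). In S1, prss60.2 (524), fibpb (177) and guca1c (2025) were highest of the phenol red group. In the same library ncapd2 (2005), smc4 (2189) and the cohesin and SMC5/6 score (-0.27) were lowest. In S6, apoc2 (853), apoba (2329.5), mcl1b (2765) and the liver and yolk score (1.79) were highest of the guide RNA group. In S11, nkx2.5 (48.7) was highest and klf17 (296) lowest of the Cas9 group.

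The hatching gland genes he1a and ctslb were highest in S2 (336 and 28.6) among phenol red libraries and in S7 (287 and 28.8) among guide RNA libraries, both at position 2, and cryaa was also highest in S2 (2748). In S13, bub1 (2054) and onecut1 (1025) were highest and slc8b1 (109.9) lowest of the Cas9 group. Of the genes outside the range of all controls, si:dkey-172k15.12 was lowest in S10 (94.5) of the guide RNA group and si:dkey-204l11.1 was lowest in S5 (45.3) of the phenol red group.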

How the results depend on the processing

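The fall of ncapg2 kept its direction and its call under every alternative run (TMM rescaling, pseudocounts of 0.5, 5 and 10, no filter, a filter of 50, non-robust moderation, each control group alone, the replicate block, edgeR and DESeq2). Its log2 fold change was -1.11 to -0.999 with 1 library left out and -1.15 to -0.98 with 1 column position left out, and with the replicate block it was -1.05. The count of called genes stayed 1 except that DESeq2 gave 2 without the block and 6 with it. With the block it was 2 with 3 group means in 1 fit, 3 against guide RNA alone and 2 against phenol red alone, and 1 to 3 with 1 library or 1 position left out. The added genes included si:dkey-204l11.1, rhcgl1, zgc:165423 and ENSDARG00000078683, and the cause was not tested. The count of genes outside the range of all 10 controls was 259 when taken within position (the replicate block), 50 against guide RNA alone and 92 against phenol red alone, 6 to 20 with 1 library and 22 to 39 with 1 position left out; fewer libraries define a narrower range, or fewer have to pass it.

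Of 94 named genes besides ncapg2, 49 moved by over 1.5 times when some 1 library was left out and 37 when some 1 position was. Some uncalled values changed sign. Against guide RNA alone they were pou1f1 (0.0072), tnni1b (0.0065), prl (0.16), six6b (-0.022) and prl2 (-0.16), and against phenol red alone cga (0.0077). With 1 library left out, apoc2 ranged from -1.57 to 0.34, apoba from -1.54 to 0.41, prl from -0.11 to 0.0013, six6b from -0.0068 to 0.045, prl2 from -0.061 to 0.11 and LHX3 from 0.0084 to 0.096. With 1 position left out, apoc2 ranged from -1.68 to 0.023, apoba from -1.57 to 0.2, prl from -0.089 to 0.0015, six6b from -0.034 to 0.064, prl2 from -0.070 to 0.13 and LHX3 from -0.020 to 0.092. Depth limits low genes such as pou1f1.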
